A study of Mus musculus with 68 samples.

Results

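Cytochrome P450 enzymes of families 1 to 4 were examined in the intestine and in intestinal tumours of mice. The 73 genes were taken by symbol alone (Cyp, a family number from 1 to 4, a subfamily letter and a gene number) from the 23356 rows of a deposited expression table, so no measured value chose them. The study asked which genes go with loss of Cftr, the chloride and bicarbonate channel mutated in cystic fibrosis, in mice with normal Apc and in ApcMin mice, which carry a truncated allele of the tumour suppressor Apc. RNA of 23 specimens in 12 groups was sequenced, all from C57BL/6 mice aged 3 months. Apc wildtype mice gave 1 Cftr knockout colon tumour, 2 Cftr knockout duodenal tumours, and 2 specimens each of Cftr knockout colon, Cftr knockout duodenum, Cftr wildtype colon and Cftr wildtype duodenum. ApcMin mice gave 2 tumours each of Cftr knockout colon, Cftr knockout ileum, Cftr heterozygous colon, Cftr heterozygous duodenum, Cftr wildtype colon and Cftr wildtype ileum. The heterozygous mice are the ones the labels call knockdown. In the Apc wildtype mice, floxed Cftr was deleted by Cre under the villin promoter, which is active in intestinal epithelium, so other cell types keep the gene. How Cftr was altered in the ApcMin mice is not given in the sources used here. The labels hold 10 animal numbers: each normal colon shares its animal with a normal duodenum, the ApcMin knockout tumours of colon and ileum come from 1 animal, the ApcMin wildtype ones from another, the 2 tumours of each heterozygous group from 1 animal, and the Apc wildtype colon tumour shares its animal with a duodenal tumour. The design text gives more mice and more normal specimens per group than the labels, and the labels are followed here.

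P450 enzymes of these families are haem proteins of the endoplasmic reticulum that oxidise drugs, dietary chemicals, steroids and fatty acids, with electrons passed on by P450 reductase (Por) and cytochrome b5. Enzymes of families 1 to 3 are best known from liver, and small-intestinal enterocytes carry a set of their own that meets swallowed compounds before the liver does, while family 4 enzymes mostly hydroxylate fatty acids and eicosanoids. Several are switched on by receptors for foreign chemicals: Cyp1 genes by the aryl hydrocarbon receptor (Ahr), Cyp2b and Cyp2c genes by CAR (Nr1i3), Cyp3a genes by PXR (Nr1i2) and Cyp4a genes by Ppara.

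Levels are given in FPKM (fragments per kilobase of transcript, scaled to library size), averaged over the lanes and sequencing runs of a specimen, so they are per length and can be set beside each other between genes. Column sums of the table ran from 476233 to 801309 FPKM, relative depth from 0.717 to 1.32, and between 26.5% and 30.8% of values were 0. Cftr RNA did not separate the labels, at 11.2 to 77.2 FPKM in the 11 specimens labelled knockout and 9.58 to 51.7 FPKM in the 12 wildtype and heterozygous ones, and a value over the whole gene does not check a floxed allele. The first-run library of wildtype colon 2 stood apart from its second-run library (SD between runs 0.458 on the log2 scale, against 0.131 to 0.210 in the other 10 specimens read in both runs) and held small-intestinal transcripts: the specimen had 34.0 FPKM of sucrase-isomaltase (Sis) and 319 FPKM of Fabp1, against at most 4.32 FPKM of either in the other 3 colons. The SD of 0.210 was that of the Apc wildtype knockout colon tumour. Its first and second runs gave 3.72 and 0.180 FPKM of Cyp3a11 and 2.41 and 0.0834 FPKM of Cyp3a25. Knockout duodenum 1 held pancreatic transcripts (491 FPKM of Ctrb1, against at most 1.91 FPKM in any other specimen). Xist, the transcript of female cells, ran from 24.0 to 55.6 FPKM in the 12 ApcMin tumours, was 34.2 FPKM in knockout duodenal tumour 1 and did not pass 0.461 FPKM in the other 10 specimens. The labels call the colon whole tissue and the duodenum epithelium, while the design text describes epithelial cells for the colon and, for the duodenum, the whole wall stripped of villi. In bulk tissue, fewer cells of a type and less RNA per cell cannot be told apart.

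Of the 73 genes, 39 reached a group mean of 1 FPKM in at least 1 of the 12 groups, and 14 did so in all 12. The other 34 stayed low in every specimen, with 1.11 FPKM as their highest value, 18 of them below 0.1 FPKM everywhere and 1 listed at 0 throughout. None of the 4 Cyp2a genes reached 1 FPKM, nor did Cyp2g1, Cyp2t4 or Cyp4x1. In the Cyp2b, Cyp2j and Cyp4a branches few genes did, with 1 of 5, 2 of 7 and 1 of 4, although Cyp2b10 and Cyp2j6 were themselves abundant in duodenum. Other branches were broadly active, with 7 of 9 Cyp2d, 6 of 8 Cyp4f, 4 of 7 Cyp3a and 8 of 15 Cyp2c genes at 1 FPKM or more. The number of genes at that level differed little between groups, from 24 in the ApcMin wildtype ileum tumours and the heterozygous colon tumours to 29 in wildtype colon, wildtype duodenum and the Apc wildtype knockout colon tumour. In wildtype colon this counts Cyp2b10, Cyp3a11 and Cyp3a25, at 13.5, 10.3 and 10.4 FPKM in the first-run library of wildtype colon 2. Its second run gave 0.0912, 0.308 and 0.132 FPKM, and wildtype colon 1 alone had 26 genes at that level. For the tumour the count includes Cyp3a11 and Cyp3a25, which were below 1 FPKM in its second run.

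The summed level of the 73 genes differed far more than their number. It was 2998 and 2168 FPKM in knockout duodenum and 3589 and 3630 FPKM in wildtype duodenum, which was 0.291% to 0.523% of all FPKM. In colon it was 1590 and 1380 FPKM in knockout and 1900 and 1608 FPKM in wildtype, or 0.231% to 0.342% of all FPKM. The sums of the organs were thus separate but their shares overlapped, with knockout duodenum 2 at 0.291% below wildtype colon 1 at 0.342%. Tumours of the Apc wildtype knockout duodenum had 1650 and 3087 FPKM, heterozygous ApcMin duodenal tumours 1708 and 1670 FPKM, and ApcMin ileum tumours 598 and 755 FPKM in knockout and 922 and 1212 FPKM in wildtype. In colon tumours it was 407 FPKM in the Apc wildtype knockout tumour, 534 and 763 FPKM in the ApcMin knockout tumours, 388 and 331 FPKM in the heterozygous ones, and 154 and 1214 FPKM in the ApcMin wildtype ones.

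**Figure D1:**
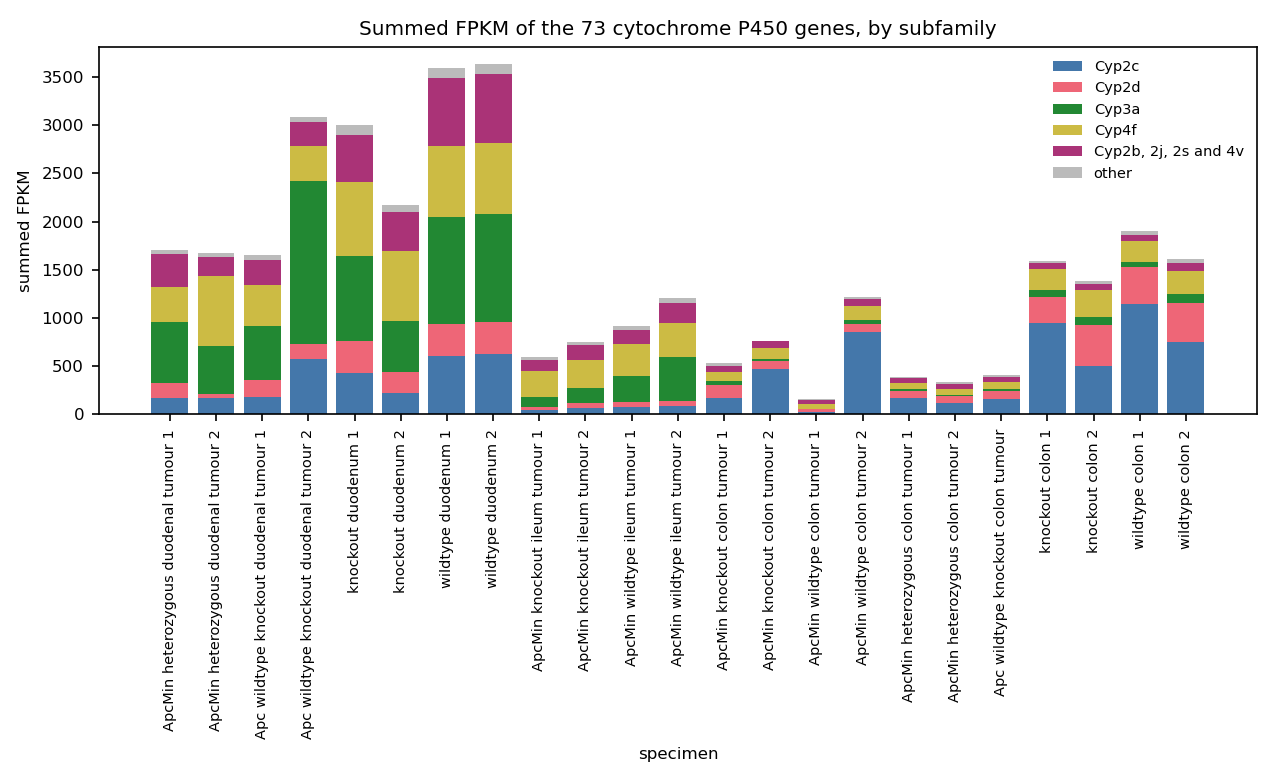
Stacked bars of the summed FPKM of the 73 P450 genes in each of the 23 specimens, coloured by subfamily. Cyp4f and Cyp3a genes fill most of the small-intestinal bars, Cyp2c genes form the largest block in all normal colons and in every colon tumour but ApcMin wildtype colon tumour 1, where Cyp4f genes do, and every colon tumour's bar is shorter than every normal colon's.

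A few genes carried a large part of the sum. The 3 highest held 53.1% to 68.8% of it in normal colon and 37.8% to 49.5% in normal duodenum. In tumours they held 32.4% to 76.5%. Cyp2c55, which oxygenates arachidonic and linoleic acid, was the highest of the 73 in all 4 colons (837.9 and 387 FPKM in knockout, 1033 and 620.3 FPKM in wildtype) and in 6 of the 7 colon tumours; in ApcMin wildtype colon tumour 1, with 11.7 FPKM of it, Cyp2j6 led at 21.0 FPKM. Cyp4f14, which hydroxylates leukotriene B4 and vitamin E, led in all 4 duodena at 554 to 594 FPKM. Cyp3a11, the main drug-oxidising Cyp3a of mouse liver, led in knockout duodenal tumour 2 at 1032 FPKM and in ApcMin wildtype ileum tumour 2 at 264 FPKM.

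The 14 genes at 1 FPKM or more in every group were Cyp2c55, Cyp2c65, Cyp2c68, Cyp2d22, Cyp2d26, Cyp2j6, Cyp2s1, Cyp3a13, Cyp4f13, Cyp4f14, Cyp4f16, Cyp4f18, Cyp4f40 and Cyp4v3. Cyp4f13 ran from 7.97 to 40.8 FPKM, Cyp4f16 from 13.6 to 91.8 FPKM, Cyp4f40 from 6.58 to 49.1 FPKM, and Cyp2j6, an arachidonic acid epoxygenase, from 16.4 to 116 FPKM. Cyp2s1 held 31.6 to 44.0 FPKM in the 8 normal specimens and 6.51 to 47.2 FPKM in tumours. Cyp4f18, which in mice hydroxylates leukotriene B4 in neutrophils, was highest in the Apc wildtype knockout colon tumour at 7.10 FPKM and elsewhere lay between 1.24 and 4.93 FPKM. Neutrophil markers (S100a8, S100a9, Cxcr2, Csf3r and Retnlg) summed to 488 FPKM in that tumour, and to between 1550 and 2041 FPKM in the heterozygous colon tumours, whose Cyp4f18 was 3.41 and 3.23 FPKM. Cyp2r1, which makes 25-hydroxyvitamin D, was low and even, between 0.690 and 1.66 FPKM over the 23 specimens.

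**Figure D2:**
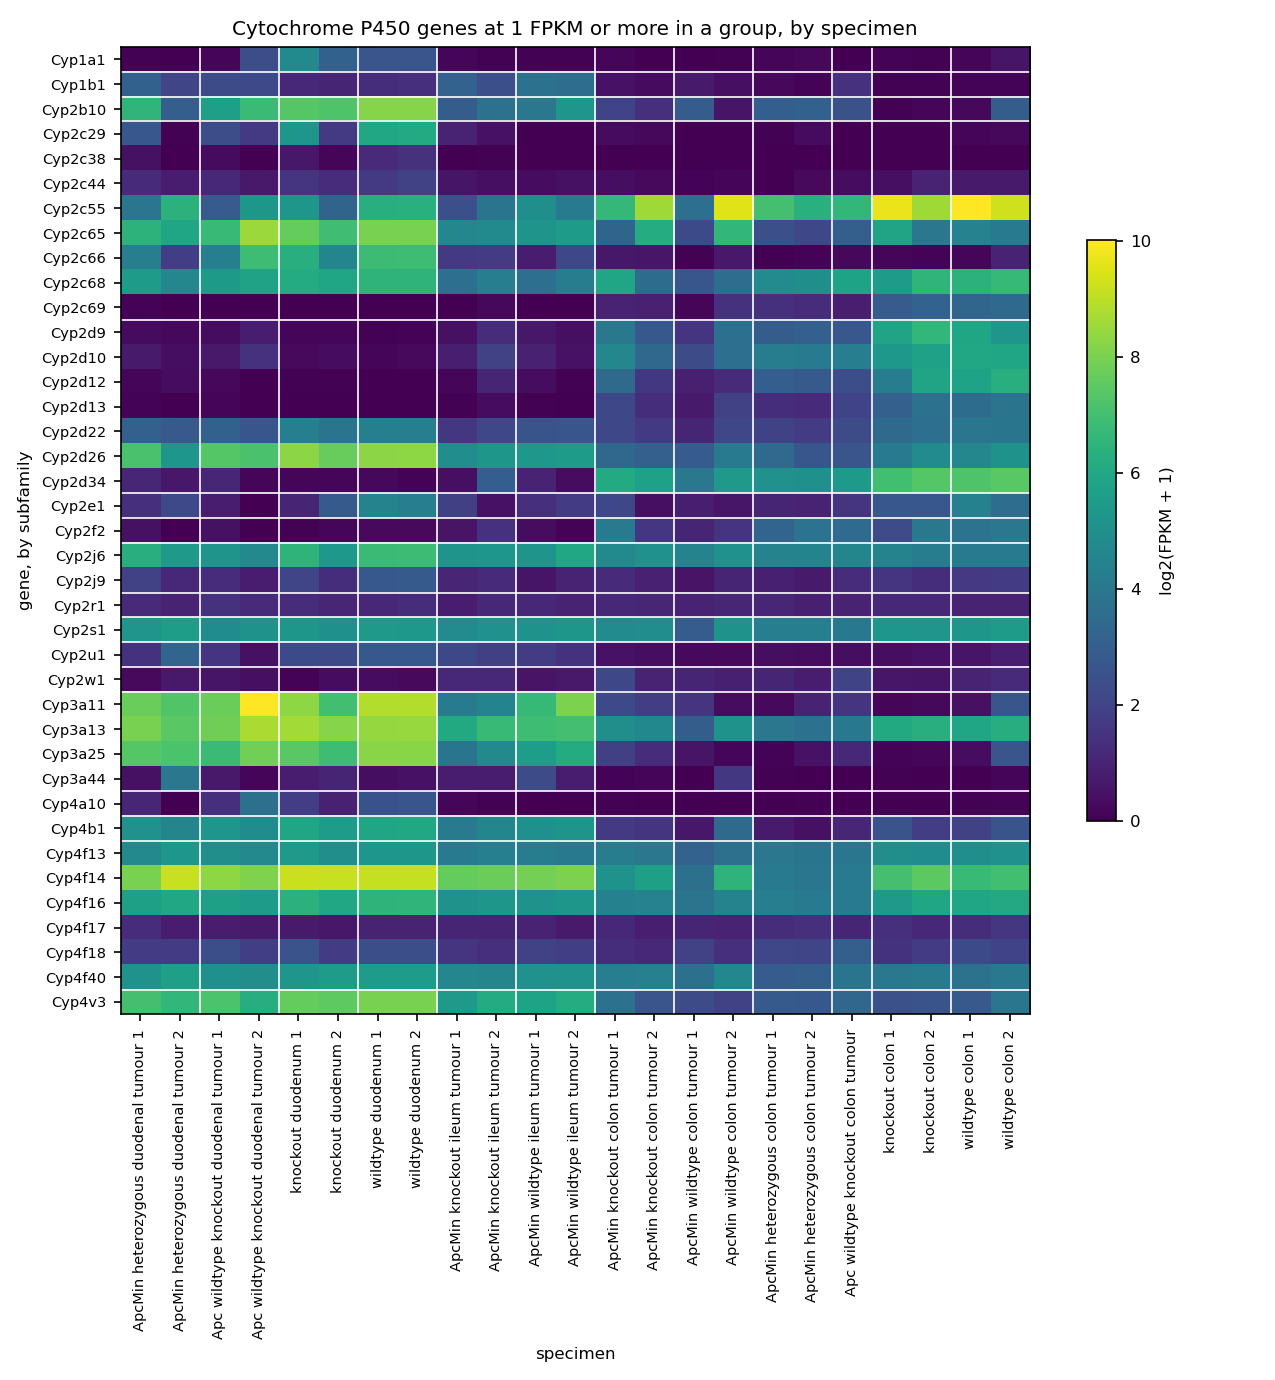
Heat map of log2(FPKM + 1) for the 39 genes with a group mean of 1 FPKM or more (rows, by subfamily) in 23 specimens (columns, by group). Cyp3a11, Cyp3a13, Cyp3a25 and Cyp4v3 are bright in small-intestinal columns while Cyp3a44 is dark in most of them, and Cyp2d9, Cyp2d10, Cyp2d12, Cyp2d13 and Cyp2d34 are bright in normal colon columns.

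The clearest division was between duodenum and colon. Both the labels and the design text give these organs different preparations, in opposite ways, so organ and preparation cannot be told apart here. In normal duodenum against normal colon, 21 genes were higher and 10 lower past an adjusted p of 0.05 (limma on log2(FPKM + 1), Benjamini-Hochberg over the 14098 genes tested), out of 39 that passed the filter of 1 FPKM in 2 specimens. Over all genes tested, 28.5% were higher and 27.1% lower in this comparison, and the median log2 change was 0.68 over the 39 genes and 0.02 over all. The filter kept genes that are high in 1 organ, so the 39 cannot stand for the 73. By subfamily, Cyp2c genes gave 5 higher, 2 lower and 1 past neither, Cyp2d genes 1, 5 and 1, Cyp3a genes 3, 0 and 1, Cyp4f genes 3, 1 and 2, and both Cyp2j genes were higher.

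Cyp3a genes were a small-intestinal group. Cyp3a11 had 317 and 125 FPKM in knockout duodenum and 463 and 464 FPKM in wildtype duodenum, against 0.0904 and 0.161 FPKM in knockout colon and 0.372 and 5.32 FPKM in wildtype colon. Its close relative Cyp3a25 had 175 and 119 FPKM in knockout and 297 and 300.0 FPKM in wildtype duodenum, against 0.0767 and 0.0859 FPKM in knockout and 0.260 and 5.26 FPKM in wildtype colon. Every duodenum was far above every colon, and the 2 values above 5 FPKM came from the first-run library of wildtype colon 2, whose second run gave 0.308 FPKM of Cyp3a11 and 0.132 FPKM of Cyp3a25. The log2 changes were 7.39 ± 0.63 for Cyp3a11 (SE; adjusted p = 1.03e-06) and 6.90 ± 0.46 for Cyp3a25 (adjusted p = 1.63e-07). Cyp3a13 was not restricted in this way, at 397 and 290 FPKM in knockout and 347 and 352 FPKM in wildtype duodenum and still 65.9 and 77.3 FPKM in knockout and 57.5 and 74.6 FPKM in wildtype colon.

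Cyp2b10, the best known target of CAR, had 165 and 152 FPKM in knockout and 294 and 293 FPKM in wildtype duodenum, against 0.0330 and 0.112 FPKM in knockout and 0.167 and 6.79 FPKM in wildtype colon. The groups did not overlap, and the second run of wildtype colon 2 gave 0.0912 FPKM; the log2 change was 6.91 ± 0.86 (adjusted p = 2.37e-05). Cyp4v3, the mouse relative of the human fatty acid hydroxylase CYP4V2, had 198 and 183 FPKM in knockout and 254 and 258 FPKM in wildtype duodenum, against 4.57 and 5.03 FPKM in knockout and 6.03 and 14.4 FPKM in wildtype colon, a log2 change of 4.84 ± 0.34 (adjusted p = 2.17e-07). Cyp4b1, which activates some furans and hydroxylates fatty acids, was at 59.4 and 44.9 FPKM in knockout and 60.4 and 62.4 FPKM in wildtype duodenum, and at 4.91 and 2.50 FPKM in knockout and 2.94 and 5.04 FPKM in wildtype colon (log2 change 3.61 ± 0.50, adjusted p = 5.73e-05). For both genes the lowest duodenum was above the highest colon.

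The Cyp2c genes split between the organs. Cyp2c66 had 79.8 and 23.1 FPKM in knockout and 115 and 118 FPKM in wildtype duodenum, against 0.0907 and 0.0652 FPKM in knockout and 0.0931 and 1.01 FPKM in wildtype colon (log2 change 5.83 ± 0.68, adjusted p = 1.52e-05). Cyp2c29 had 37.2 and 2.27 FPKM in knockout and 63.2 and 68.9 FPKM in wildtype duodenum, and was at most 0.150 FPKM in colon (log2 change 4.69 ± 0.71, adjusted p = 0.000126). Both were on in every duodenum and nearly off in colon, and knockout duodenum 2 was the lowest duodenum for each. Cyp2c55 ran the other way, with 37.9 and 8.43 FPKM in knockout and 78.7 and 80.5 FPKM in wildtype duodenum, all below the colon values given above (log2 change −4.11 ± 1.22, adjusted p = 0.0118). Cyp2c69 was found only at trace levels in duodenum, at most 0.0137 FPKM, against 6.27 to 9.78 FPKM in colon, and Cyp2c68 overlapped between them, at 60.0 to 91.5 FPKM in duodenum and 45.4 to 104 FPKM in colon.

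The Cyp2d genes were mostly colonic. Cyp2d34 had 0.106 and 0.132 FPKM in knockout and 0.171 and 0.0743 FPKM in wildtype duodenum, against 125 and 166 FPKM in knockout and 153 and 172 FPKM in wildtype colon (log2 change −7.10 ± 0.51, adjusted p = 2.62e-07). Cyp2d9, a testosterone hydroxylase known from male mouse liver, was at 0.0410 to 0.104 FPKM in duodenum and 36.1 to 97.4 FPKM in colon (log2 change −5.79 ± 0.45, adjusted p = 4.78e-07). Cyp2d12 and Cyp2d10 fell by 5.51 ± 0.43 (adjusted p = 5.28e-07) and 5.47 ± 0.38 (adjusted p = 2.15e-07) on the log2 scale in duodenum, where neither was above 0.273 FPKM, while colon held 17.6 to 76.2 FPKM of Cyp2d12 and 39.1 to 60.8 FPKM of Cyp2d10. The exception was Cyp2d26, with 306 and 204 FPKM in knockout and 312 and 321 FPKM in wildtype duodenum, against 16.9 and 27.7 FPKM in knockout and 23.6 and 33.8 FPKM in wildtype colon. Cyp2d22 was at 13.5 to 19.2 FPKM in duodenum and 10.1 to 14.4 FPKM in colon and did not pass (limma adjusted p = 0.122).

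The less abundant genes were divided as well. Cyp2u1, a fatty acid hydroxylase, was at 3.65 to 5.69 FPKM in duodenum and 0.308 to 0.798 FPKM in colon, Cyp2c44, an arachidonic acid epoxygenase, at 1.41 to 2.83 FPKM in duodenum and 0.335 to 0.987 FPKM in colon, and Cyp4a10 at 0.880 to 5.28 FPKM in duodenum and at most 0.0689 FPKM in colon. In the other direction, Cyp2f2, which activates naphthalene in mouse lung, was at 0.0399 to 0.187 FPKM in duodenum and 4.05 to 14.7 FPKM in colon, Cyp2d13 at no more than 0.0150 FPKM in duodenum and 7.39 to 13.5 FPKM in colon, and Cyp4f17 at 0.549 to 1.01 FPKM in duodenum and 1.20 to 1.98 FPKM in colon. All 6 passed the test. Cyp3a44 did not, at 0.303 to 1.05 FPKM in duodenum and 0.0105 to 0.0918 FPKM in colon.

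Cell markers also differed between duodenum and colon as prepared. Of 10 small-intestinal enterocyte markers 9 were higher in duodenum, with summed levels of 11670 to 15112 FPKM in knockout and 14399 to 14750 FPKM in wildtype duodenum, against 577 to 1171 FPKM in knockout and 401 to 777 FPKM in wildtype colon, and 4 of 6 colonocyte markers were lower. Paneth markers were higher in 5 of 6, at 15962 to 30056 FPKM in duodenum against 579 to 1603 FPKM in colon. Stromal markers were lower: 6 of 7 fibroblast markers, at 140 to 177 FPKM in duodenum against 338 to 428 FPKM in colon, and 3 of 6 smooth muscle markers, at 790 to 856 FPKM against 2354 to 2961 FPKM. Of the goblet markers 3 of 6 were lower and 1 higher. The part of these in the results was not tested. Of the hepatocyte markers, Fgb was at most 0.0150 FPKM in the 8 normal specimens, and the list of 8 summed to 10.6 to 14.2 FPKM in duodenum and 23.4 to 37.5 FPKM in colon. With run 1 alone 31 genes passed and with run 2 alone 30, and 31 passed without the first-run library of wildtype colon 2.

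**Figure D3:**
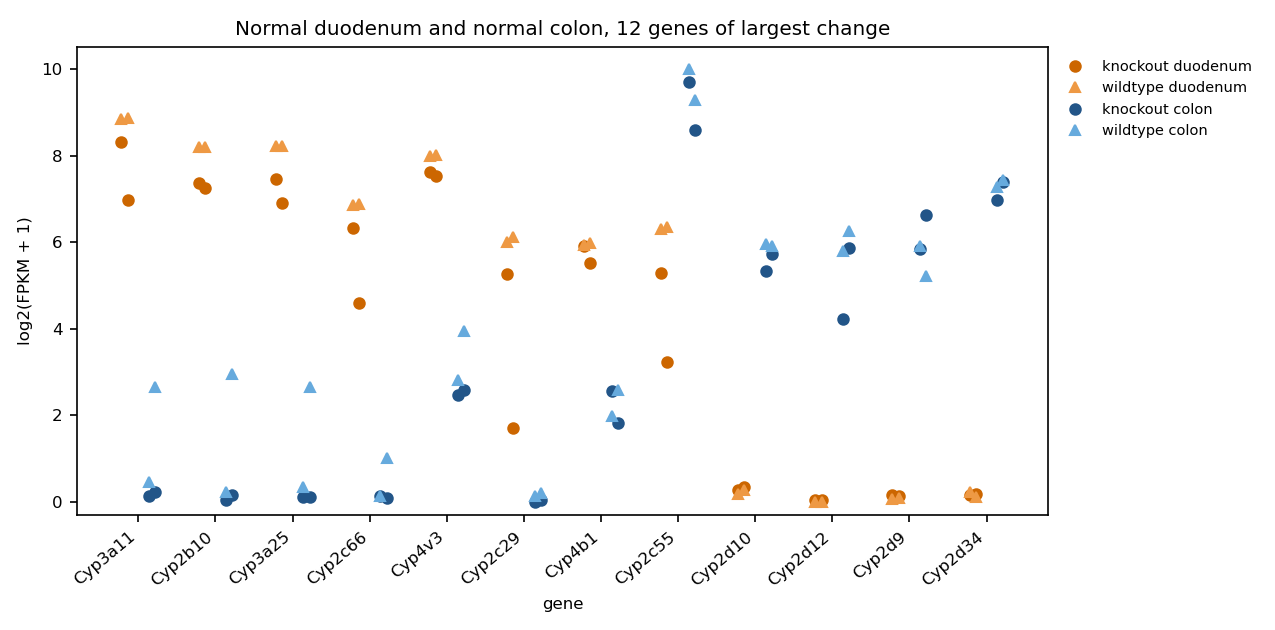
Points show log2(FPKM + 1) per specimen of the 12 genes with the largest change between normal duodenum and normal colon, knockout and wildtype in separate colours. Duodenum and colon do not overlap for any of the 12, and wildtype colon 2 lies above the other colons for Cyp3a11, Cyp3a25 and Cyp2b10.

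The organ split ran through neighbouring genes. On chromosome 19, 14 Cyp2c genes lie between positions 39007019 and 40187333 (GRCm38), and 7 of them reached 1 FPKM. Cyp2c55 (39007019 to 39042693), highest in colon, has further along, on the same strand, Cyp2c65 (39061015 to 39093944) and Cyp2c66 (39113898 to 39187072). Both of these were higher in duodenum, and Cyp2c65 had 200 and 121 FPKM in knockout and 256 and 258 FPKM in wildtype duodenum, against 57.3 and 14.7 FPKM in knockout and 20.4 and 16.0 FPKM in wildtype colon. On chromosome 15, 8 Cyp2d genes lie between 82370527 and 82794294, and 6 of them reached 1 FPKM. Cyp2d26 (82790101 to 82794294) stands at the far end of that cluster from Cyp2d22 (82370527 to 82380260), the other Cyp2d gene that was well above 1 FPKM in duodenum, with the colonic Cyp2d9, Cyp2d10, Cyp2d12 and Cyp2d34 between them. The Cyp3a cluster on chromosome 5 (145345279 to 146113287) holds 6 genes, of which Cyp3a11, Cyp3a25 and Cyp3a44 reached 1 FPKM, and Cyp3a13 lies apart on that chromosome (137892932 to 137921619). Cyp2c44 and Cyp2d13 were not placed, since the annotation used holds neither symbol. Near-identical copies make some values uncertain: of 37 genes at 1 FPKM with a transcript, 15 share over 10% of their runs of 50 bases with another gene, most of all Cyp2c69 (54.8%), Cyp2c68 (43.3%) and Cyp2d10 (40.5%).

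Promoters of these neighbours are shown because the genes lie side by side and differ in organ. RefSeq (GRCm38.p6) gave a promoter, 250 bases before to 50 after the start, for 60 of the 73 genes and 31 of the 39. The promoters printed were chosen after the values were seen. They are chr19:39006769-39007068 for Cyp2c55, chr19:39113648-39113947 for Cyp2c66 (both plus strand), chr15:82407145-82407444 for Cyp2d10, chr15:82794196-82794495 for Cyp2d26, chr5:145879805-145880104 for Cyp3a11 and chr5:146009569-146009868 for Cyp3a25 (all minus strand). Each is written 5′ to 3′ on the strand of its gene. Capitals mark AGGTCA (bound by nuclear receptors), GTTAAT (part of an HNF1 site), GCGTG (the core bound by Ahr with Arnt) and TATAAA (the TATA box), on either strand.
Cyp2c55: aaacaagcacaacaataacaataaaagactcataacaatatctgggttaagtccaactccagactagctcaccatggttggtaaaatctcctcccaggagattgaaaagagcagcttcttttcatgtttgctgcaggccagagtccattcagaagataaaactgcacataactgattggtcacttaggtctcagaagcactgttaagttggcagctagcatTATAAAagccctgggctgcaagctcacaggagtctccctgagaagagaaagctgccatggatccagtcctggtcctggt
Cyp2c66: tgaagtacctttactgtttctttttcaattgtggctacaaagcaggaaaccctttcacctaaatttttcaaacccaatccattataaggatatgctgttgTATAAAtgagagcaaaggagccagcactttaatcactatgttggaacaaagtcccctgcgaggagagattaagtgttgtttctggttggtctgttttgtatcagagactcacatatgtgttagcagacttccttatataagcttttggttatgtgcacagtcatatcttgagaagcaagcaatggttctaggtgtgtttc
Cyp2d10: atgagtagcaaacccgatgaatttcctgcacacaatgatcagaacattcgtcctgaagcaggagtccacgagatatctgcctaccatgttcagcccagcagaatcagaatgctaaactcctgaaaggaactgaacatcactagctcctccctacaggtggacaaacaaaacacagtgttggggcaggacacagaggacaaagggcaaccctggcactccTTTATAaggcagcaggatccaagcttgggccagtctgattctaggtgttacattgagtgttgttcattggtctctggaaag
Cyp2d26: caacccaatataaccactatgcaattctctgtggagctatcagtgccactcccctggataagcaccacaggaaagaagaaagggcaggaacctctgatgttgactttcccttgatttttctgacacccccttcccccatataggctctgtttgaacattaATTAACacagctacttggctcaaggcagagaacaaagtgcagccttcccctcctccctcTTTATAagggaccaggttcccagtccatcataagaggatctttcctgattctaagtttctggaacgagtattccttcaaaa
Cyp3a11: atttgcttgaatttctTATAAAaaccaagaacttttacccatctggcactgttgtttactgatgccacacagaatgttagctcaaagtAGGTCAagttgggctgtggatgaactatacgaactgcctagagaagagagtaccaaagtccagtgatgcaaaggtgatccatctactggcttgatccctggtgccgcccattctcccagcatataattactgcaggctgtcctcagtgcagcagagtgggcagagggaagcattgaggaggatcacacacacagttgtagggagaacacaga
Cyp3a25: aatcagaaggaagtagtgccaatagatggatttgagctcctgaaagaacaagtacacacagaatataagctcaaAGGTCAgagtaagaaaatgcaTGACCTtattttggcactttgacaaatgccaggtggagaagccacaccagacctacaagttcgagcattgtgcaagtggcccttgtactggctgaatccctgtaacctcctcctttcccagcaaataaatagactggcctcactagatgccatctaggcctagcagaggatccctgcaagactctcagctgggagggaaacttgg

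TATAAA or its reverse complement began 29 bases before the start in the colonic Cyp2c55 and at position −31 in both Cyp2d10 and Cyp2d26, while Cyp2c66 held it only at −150 and Cyp3a11 at −234. AGGTCA was present at −162 in Cyp3a11 and at −176 and −155 in Cyp3a25, and GTTAAT at −90 in Cyp2d26. Over the 60 promoters, TATAAA was in 27 (45.0%), against 13.6% of 32817 promoters of all genes, AGGTCA in 17 (28.3% against 16.3%), GTTAAT in 8 (13.3% against 7.1%) and GCGTG in 12 (20.0% against 32.4%). One more motif, TTTATNG of the Cdx proteins, which can overlap TATAAA on the other strand and is not capitalised, was in 9 (15.0% against 10.9%). Over the 31 of these promoters whose genes reached 1 FPKM, AGGTCA was in 5 (16.1%) and GCGTG in 9 (29.0%), close to the shares of all promoters, TATAAA in 13 (41.9%), GTTAAT in 4 (12.9%) and TTTATNG in 5 (16.1%). A match describes these letters only.

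Tumours of ApcMin ileum and colon also differed. In ApcMin ileum tumours against ApcMin colon tumours, 13 genes were higher (13% of all genes were) and 8 lower (11.1% of all genes), and the median log2 change was 0.39 over the 39 genes and 0.01 over all. Cyp3a11 had 16.1 and 21.8 FPKM in knockout and 103 and 264 FPKM in wildtype ileum tumours, against 3.63 and 2.50 FPKM in knockout and 1.84 and 0.243 FPKM in wildtype colon tumours (log2 change 4.38 ± 0.57, adjusted p = 0.000128). Cyp3a25 had 13.7 and 26.2 FPKM in knockout and 47.8 and 69.6 FPKM in wildtype ileum tumours, against 2.70 and 1.44 FPKM in knockout and 0.450 and 0.0875 FPKM in wildtype colon tumours (4.14 ± 0.42, adjusted p = 1.92e-05). Cyp3a13 had 67.1 and 108 FPKM in knockout and 118 and 129 FPKM in wildtype ileum tumours, against 30.0 and 24.3 FPKM in knockout and 6.71 and 34.8 FPKM in wildtype colon tumours (2.27 ± 0.38, adjusted p = 0.000799). For all 3 the lowest ileum tumour was above the highest colon tumour.

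Family 4 genes and Cyp1b1 made up most of the other rises. Cyp4v3 was at 40.5 and 70.2 FPKM in knockout and 55.3 and 72.9 FPKM in wildtype ileum tumours and at 2.87 to 12.7 FPKM in colon tumours (3.21 ± 0.30, adjusted p = 1.41e-05). Cyp4b1 was at 16.6 to 35.7 FPKM in ileum and 0.546 to 10.1 FPKM in colon tumours (2.91 ± 0.44, adjusted p = 0.000443), and Cyp4f14 at 201 to 259 FPKM in ileum and 12.0 to 90.4 FPKM in colon tumours (2.57 ± 0.45, adjusted p = 0.00116). Cyp1b1, which oxidises polycyclic hydrocarbons and oestrogens and is known mainly from mesenchymal cells, had 7.86 and 4.43 FPKM in knockout and 12.3 and 11.0 FPKM in wildtype ileum tumours, against 0.394 and 0.227 FPKM in knockout and 0.653 and 0.342 FPKM in wildtype colon tumours (2.75 ± 0.19, adjusted p = 1.84e-06). None of these ranges overlapped. Cyp2b10 passed narrowly (2.28 ± 0.77, adjusted p = 0.0465), with 6.80 to 37.9 FPKM in ileum and 0.471 to 6.51 FPKM in colon tumours, and passed in 4 of 13 alternative analyses.

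The colonic Cyp2d genes remained low in ileum tumours. Cyp2d34 had 0.323 and 7.0 FPKM in knockout and 1.01 and 0.245 FPKM in wildtype ileum tumours, against 67.8 and 51.8 FPKM in knockout and 15.2 and 40.6 FPKM in wildtype colon tumours (−4.13 ± 0.46, adjusted p = 4.1e-05). Cyp2d10 was at 0.410 to 2.84 FPKM in ileum and 3.93 to 24.1 FPKM in colon tumours (−2.44 ± 0.34, adjusted p = 0.000243), and Cyp2d9 at 0.313 to 1.39 FPKM in ileum and 1.91 to 15.2 FPKM in colon tumours (−2.29 ± 0.40, adjusted p = 0.00121). Cyp2c55 fell by 3.26 ± 1.09 (adjusted p = 0.0452) but its groups overlapped, with 4.45 and 13.3 FPKM in knockout and 30.7 and 16.7 FPKM in wildtype ileum tumours and 101 and 385 FPKM in knockout and 11.7 and 739.6 FPKM in wildtype colon tumours, and it passed in 4 of 13 alternatives. Without ApcMin wildtype colon tumour 2 its change was −1.79, past the threshold no longer. Of the markers, 8 of 10 small-intestinal enterocyte and 4 of 6 Paneth genes were higher in ileum than in colon tumours, and 3 of 6 colonocyte, 2 of 7 fibroblast and 4 of 5 neutrophil genes lower; their part was not tested.

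Colon tumours held less of most colonic P450s than normal colon. In ApcMin colon tumours against normal colon, in the second-run columns that both share, 18 genes were lower (23.1% of all genes were) and 2 higher (22.3% of all genes), and the median log2 change was −0.44 over the 39 genes and 0.00 over all. All 7 Cyp2d genes tested were lower, as were 4 of 6 Cyp4f and 3 of 8 Cyp2c genes. The tumours differ from the colons in Apc genotype and in Xist. The labels call the colons whole tissue and these specimens tumours, while the design text describes epithelial cells for the colon. Genotype, Xist and tissue preparation cannot be told apart from the tumour itself. In the knockout groups alone 9 genes passed.

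Cyp2d12 had 9.92 and 2.07 FPKM in knockout and 0.833 and 1.32 FPKM in wildtype tumours, against 19.3 and 56.6 FPKM in knockout and 53.8 and 76.1 FPKM in wildtype colon (−3.77 ± 0.41, adjusted p = 0.000144). Cyp2d9 had 15.2 and 5.72 FPKM in knockout and 1.91 and 11.5 FPKM in wildtype tumours, against 56.0 and 94.8 FPKM in knockout and 56.5 and 35.9 FPKM in wildtype colon (−2.88 ± 0.44, adjusted p = 0.000681). Every tumour lay below every colon for both. The same held for Cyp2d10 (3.93 to 24.1 against 40.3 to 62.2 FPKM; −2.26 ± 0.39, adjusted p = 0.00119), Cyp2d22 (1.07 to 3.49 against 10.2 to 14.8 FPKM; −1.98 ± 0.23, adjusted p = 0.000187), Cyp2d13 (0.673 to 3.53 against 6.74 to 13.3 FPKM; −1.97 ± 0.27, adjusted p = 0.000449) and Cyp2d34 (15.2 to 67.8 against 120 to 172 FPKM; −1.93 ± 0.47, adjusted p = 0.00752). In the knockout groups alone Cyp2d10 and Cyp2d34 no longer passed, at −1.54 and −1.23.

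Outside the Cyp2d group, Cyp2c69 had 1.01 and 0.870 FPKM in knockout and 0.116 and 1.74 FPKM in wildtype tumours, against 5.86 and 7.57 FPKM in knockout and 8.21 and 9.97 FPKM in wildtype colon (−2.25 ± 0.22, adjusted p = 0.000106). Cyp4f14 was at 12.0 to 90.4 FPKM in tumours and 106 to 174 FPKM in colon (−1.74 ± 0.45, adjusted p = 0.00986), and Cyp3a13 at 6.71 to 34.8 FPKM in tumours and 57.0 to 79.4 FPKM in colon (−1.66 ± 0.39, adjusted p = 0.00643), again with no overlap. Cyp2c68 fell by 2.40 ± 0.44 (adjusted p = 0.00177), with 60.6 and 10.7 FPKM in knockout and 5.33 and 10.9 FPKM in wildtype tumours against 48.0 to 104 FPKM in colon, so that ApcMin knockout colon tumour 1 lay within the colon range. Cyp2c55, the most abundant colonic gene of the set, was not among those that passed: its tumours ran from 11.7 to 739.6 FPKM.

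Cyp2e1, the ethanol-oxidising P450 that liver and fat cells express, had 3.49 and 0.319 FPKM in knockout and 0.772 and 0.513 FPKM in wildtype tumours, against 6.63 and 5.37 FPKM in knockout and 20.0 and 10.8 FPKM in wildtype colon (−2.39 ± 0.47, adjusted p = 0.00235). Adipocyte markers (Adipoq, Plin1, Cfd and Lep) moved with it: 3 of 3 tested were lower. Their sum was 2.53 to 34.9 FPKM in knockout and 0.145 to 1.92 FPKM in wildtype tumours, which were read in the second run only. In colon, averaged over both runs, it was 31.2 to 34.3 FPKM in knockout and 82.2 to 117 FPKM in wildtype. Of the other markers, 6 of 6 smooth muscle and 4 of 6 colonocyte genes were lower and 5 of 5 neutrophil, 5 of 6 Paneth and 4 of 5 stem cell genes higher in tumours, and their part in these results was not tested. The sum of the 7 epithelial markers overlapped, at 3710 to 6252 FPKM in tumours and 3759 to 5607 FPKM in colon, again averaged over both runs. Cyp2b10 was the larger of the 2 rises, at 3.05 and 1.57 FPKM in knockout and 6.51 and 0.471 FPKM in wildtype tumours, against 0.0660 to 0.187 FPKM in colon (1.55 ± 0.47, adjusted p = 0.0214), and passed in 9 of 16 alternatives; averaged over both runs, so that wildtype colon 2 counts with its first-run library, its change was 0.87 and did not pass.

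**Figure D4:**
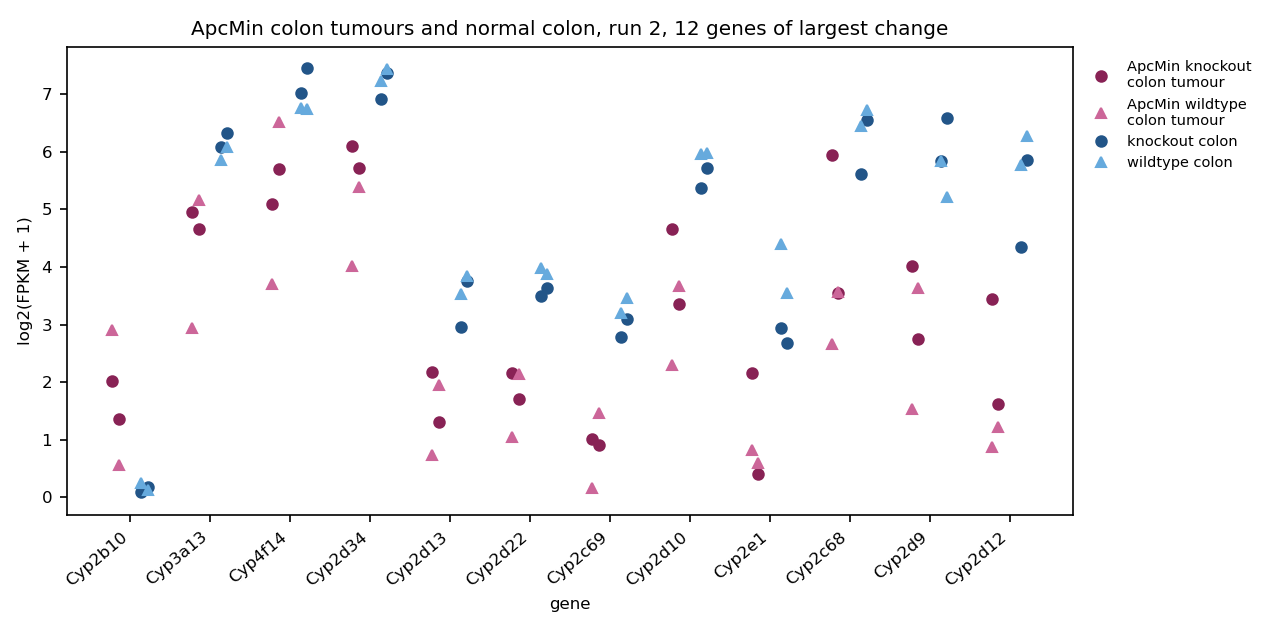
Points show log2(FPKM + 1) per specimen, second-run columns, of the 12 genes with the largest change between ApcMin colon tumours and normal colon. The tumours lie below the colons for 10 of the 12, overlap them for Cyp2c68 and lie above them for Cyp2b10.

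Heterozygous ApcMin colon tumours were set against the normal colons in run 1, which both share. Of the 39, 20 were lower (26.5% of all genes were) and 0 higher (26.8% of all genes), and the median log2 change was −0.67 over the 39 genes and −0.02 over all. The other ApcMin colon tumours had been set against the same colons, and here too Apc genotype, Xist, tissue preparation and tumour cannot be told apart. Cyp4f14 had 16.4 and 14.3 FPKM in the tumours, against 135 and 184 FPKM in knockout and 105 and 148 FPKM in wildtype colon (−3.11 ± 0.30, adjusted p = 0.000113). Cyp2d9 had 6.73 and 7.5 FPKM in the tumours, against 56.2 and 99.9 FPKM in knockout and 62.1 and 36.2 FPKM in wildtype colon (−2.90 ± 0.25, adjusted p = 7.32e-05). Cyp2c55 had 132 and 80.1 FPKM in the tumours, against 827 and 387 FPKM in knockout and 1033 and 589.8 FPKM in wildtype colon (−2.68 ± 0.86, adjusted p = 0.029), and passed in 7 of 13 alternatives. The 2 tumours, from 1 animal, lay close together and below all colons for each gene.

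The others of the 12 largest falls in heterozygous colon tumours were Cyp2d12 (−2.61 ± 0.41, adjusted p = 0.00106), Cyp2c65 (−2.37 ± 0.60, adjusted p = 0.0108), Cyp2d13 (−2.34 ± 0.18, adjusted p = 3.83e-05), Cyp2e1 (−2.32 ± 0.54, adjusted p = 0.00709), Cyp3a13 (−2.26 ± 0.28, adjusted p = 0.000351), Cyp2d34 (−2.24 ± 0.35, adjusted p = 0.00102), Cyp2c69 (−1.89 ± 0.10, adjusted p = 7.2e-06), Cyp2d22 (−1.87 ± 0.18, adjusted p = 0.000101) and Cyp4b1 (−1.72 ± 0.34, adjusted p = 0.00333). None of their ranges overlapped with colon. Epithelial markers differed in these tumours, with 5 of 7 lower and 1 higher past the test and summed levels of 3629 to 3688 FPKM, and all 6 colonocyte markers were lower, at 362 to 364 FPKM against 3437 to 6445 FPKM in colon. Neutrophil markers summed to 1550 to 2041 FPKM against 2.81 to 7.52 FPKM in colon. Adipocyte markers were lower in 3 of 3 tested, at 1.82 to 2.50 FPKM against 31.2 to 117 FPKM in colon, as were 6 of 6 smooth muscle markers, at 557 to 750.1 FPKM against 2354 to 2961 FPKM, and 6 of 6 goblet markers, at 4270 to 4296 FPKM against 9106 to 16783 FPKM. Paneth markers were higher in 5 of 6 and stem cell markers in 4 of 5. Marker sums of colon are averaged over both runs, while these tumours were read in run 1 only. The part of the markers in the P450 values was not tested.

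Fewer genes passed in duodenal than in colon tumours, and this was not particular to the P450s. Over all genes, 1151 passed in Apc wildtype and 2675 in heterozygous duodenal tumours, against 6401 in ApcMin and 7506 in heterozygous colon tumours. In Apc wildtype knockout duodenal tumours against knockout duodenum, 1 P450 gene was higher (3.94% of all genes were) and 2 lower (4.23% of all genes). The labels call the normal duodena epithelium and these specimens tumours, so tumour and tissue preparation cannot be told apart here. Cyp1a1, the classic Ahr target, had 0.136 and 4.16 FPKM in the tumours, against 25.7 and 7.72 FPKM in knockout duodenum (−2.66 ± 0.56, adjusted p = 0.0112). Cyp1b1 had 3.83 and 3.57 FPKM in the tumours, against 1.16 and 1.04 FPKM in duodenum (1.16 ± 0.27, adjusted p = 0.0214), and Cyp2d22 had 7.60 and 5.46 FPKM, against 19.2 and 13.5 FPKM (−1.20 ± 0.31, adjusted p = 0.0309). The groups did not overlap for any of the 3, but the calls depended on the fit. Cyp1a1 passed in 7, Cyp2d22 in 6 and Cyp1b1 in 7 of 11 alternatives. The tumours stood apart from each other: Cyp3a11 was at 216 and 1032 FPKM, Cyp2c65 at 106 and 364 FPKM and Cyp4a10, a fatty acid hydroxylase and Ppara target, at 1.65 and 12.0 FPKM, and only tumour 1 held Xist. Fibroblast markers were higher in 2 of 7 and neutrophil markers in 2 of 5, and their part was not tested.

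In heterozygous ApcMin duodenal tumours against normal duodenum, in run 1, 5 genes were lower (9.26% of all genes were) and 1 higher (9.71% of all genes), and the median log2 change was −0.56 over the 39 genes and 0.01 over all. Cyp1a1 was at 0.0308 FPKM in 1 tumour and listed at 0 in the other, against 27.2 and 7.47 FPKM in knockout and 4.69 and 5.56 FPKM in wildtype duodenum (−3.26 ± 0.66, adjusted p = 0.0129). Cyp1b1 had 7.60 and 3.24 FPKM in the tumours, against 1.07 and 1.04 FPKM in knockout and 1.44 and 1.51 FPKM in wildtype duodenum (1.42 ± 0.25, adjusted p = 0.00771). Cyp1a1 and Cyp1b1 thus had no overlap with duodenum, in opposite directions, in the duodenal tumours of both Apc genotypes. The 2 comparisons share the knockout duodena, and in both, tumour and tissue preparation cannot be told apart. In the ApcMin tumours, genotype and Xist cannot be told apart from these either.

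Cyp2c29 had 5.63 and 0.0491 FPKM in those tumours, against 35.3 and 2.30 FPKM in knockout and 64.2 and 71.4 FPKM in wildtype duodenum (−3.38 ± 1.01, adjusted p = 0.0495), with overlap. Cyp2d26 had 140 and 37.1 FPKM, against 211 to 329 FPKM (−1.99 ± 0.55, adjusted p = 0.0388), Cyp2d22 7.44 and 5.91 FPKM, against 13.8 to 20.2 FPKM (−1.29 ± 0.19, adjusted p = 0.00382), and Cyp2c68 44.7 and 23.6 FPKM, against 61.3 to 92.3 FPKM (−1.24 ± 0.35, adjusted p = 0.0409), none of them with overlap. The tumours again differed from each other, with 91.8 and 7.08 FPKM of Cyp2b10 and 0.384 and 14.7 FPKM of Cyp3a44. Tumour 1 also held 8.40 FPKM of the liver transcript Ahsg, against 0.515 FPKM in tumour 2 and at most 0.0715 FPKM in duodenum, and its part in the P450 values was not tested. Fitted on the compared groups alone, none of the 39 passed. Over 13 alternatives the change ran from −4.76 to −2.05 for Cyp2c29 and from −2.93 to −1.04 for Cyp2d26. It ran from −1.44 to −1.15 for Cyp2d22 and from −1.68 to −0.79 for Cyp2c68. The number of genes past the test moved as well, among the 39 and over all genes.

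No P450 of the 39 passed between Cftr knockout and wildtype. The 4 comparisons of knockout with wildtype gave 0 of 39 genes, where all genes gave 0.0% in normal colon, 0.0% in normal duodenum, 0.0638% in ApcMin colon tumours and 0.121% in ApcMin ileum tumours (limma, adjusted p of 0.05). At an unadjusted p under 0.05 there were 1, 4, 5 and 4 of the 39 in that order, and over all 14098 genes 948, 368, 1708 and 825. A p that misses the threshold does not show equal levels. Median log2 changes of the 39 were −0.27, −0.25, 0.27 and 0.01, against 0.00, 0.01, 0.00 and 0.01 over all genes.

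In normal colon the genes with the smallest p were Cyp3a25, Cyp4v3 and Cyp2e1. Cyp3a25 was at 0.0767 and 0.0859 FPKM in knockout and 0.260 and 5.26 FPKM in wildtype (−1.38 ± 0.59, adjusted p = 0.697), and its change was −0.14 without the first-run library of wildtype colon 2. Cyp4v3 was at 4.57 and 5.03 FPKM in knockout and 6.03 and 14.4 FPKM in wildtype (−0.84 ± 0.43, adjusted p = 0.789), and −0.36 without that library. Cyp2e1 was at 5.67 and 5.60 FPKM in knockout and 20.0 and 11.1 FPKM in wildtype (−1.26 ± 0.65, adjusted p = 0.798), and −1.24 without it. Adipocyte markers summed to 31.2 to 34.3 FPKM in knockout, below the 82.2 to 117 FPKM of wildtype colon, with none of 3 past the test, and their part in the Cyp2e1 values was not tested.

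In normal duodenum, Cyp2c38 was at 0.570 and 0.0928 FPKM in knockout and 1.32 and 1.68 FPKM in wildtype (−0.93 ± 0.21, adjusted p = 0.475), and passed only where the wildtype duodena were counted as 2 samples (adjusted p = 0.0444). Cyp2j9 was at 3.25 and 1.47 FPKM in knockout and 5.75 and 6.19 FPKM in wildtype (−1.11 ± 0.36, adjusted p = 1.0). Cyp2e1 was at 1.04 and 6.22 FPKM in knockout and 21.1 and 18.6 FPKM in wildtype (−2.44 ± 0.80, adjusted p = 1.0), and adipocyte markers at 6.06 to 39 FPKM in knockout and 126 to 144 FPKM in wildtype. Neither knockout duodenum reached the wildtype ones in any of the 3 genes, but the 3 were taken for the smallest p, which favours separate groups. Knockout duodenum 1 is the specimen with pancreatic transcripts. The Cftr difference in duodenum minus that in colon also gave 0 of 39 genes (0.0% of all genes), with Cyp2c38 at −0.93 ± 0.27, Cyp2j6 at −1.15 ± 0.58 and Cyp1a1 at 1.56 ± 0.88, each at an adjusted p of 1.0.

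In ApcMin colon tumours, Cyp4f13 was at 17.2 and 14.6 FPKM in knockout and 7.97 and 11.9 FPKM in wildtype (0.65 ± 0.20, adjusted p = 0.259), Cyp2d12 at 9.92 and 2.07 FPKM in knockout and 0.833 and 1.32 FPKM in wildtype (1.49 ± 0.55, adjusted p = 0.318) and Cyp2c68 at 60.6 and 10.7 FPKM in knockout and 5.33 and 10.9 FPKM in wildtype (1.63 ± 0.61, adjusted p = 0.321). Each genotype is 1 animal here. The wildtype tumours were far apart, and the changes moved with the settings and tumours used. Over 9 alternatives they ran from 0.39 to 0.91 for Cyp4f13, from 0.57 to 2.41 for Cyp2d12 and from 0.44 to 2.83 for Cyp2c68. The number of genes past the test moved widely too, among the 39 and over all genes. Of the 39, 32 had a positive change, against 8 in normal colon, 8 in normal duodenum and 20 in ApcMin ileum tumours. In the colon tumours the change was also positive in 10 of 10 small-intestinal enterocyte markers (median log2 change 1.73; 521 to 538 FPKM in knockout and 152 to 499.8 FPKM in wildtype) and 6 of 6 colonocyte markers (0.80; 786 to 2840 FPKM in knockout and 249 to 2994 FPKM in wildtype). None of these markers passed the test, and their part in the P450 values was not tested. In ApcMin ileum tumours, Cyp3a11 was at 16.1 and 21.8 FPKM in knockout and 103 and 264 FPKM in wildtype (−3.07 ± 0.80, adjusted p = 0.251), Cyp1b1 at 7.86 and 4.43 FPKM in knockout and 12.3 and 11.0 FPKM in wildtype (−0.86 ± 0.27, adjusted p = 0.425), and Cyp3a25 at 13.7 and 26.2 FPKM in knockout and 47.8 and 69.6 FPKM in wildtype (−1.56 ± 0.59, adjusted p = 0.62). These genes were taken for the smallest p, which favours separate groups. That their knockout tumours lay below both wildtype tumours is therefore no added evidence. None passed in any of 9 alternatives. The 10 small-intestinal enterocyte markers summed to between 4482 and 5207 FPKM in the knockout tumours, against 14004 to 14458 FPKM in the wildtype ones, with 5 of 10 at a positive change and none past the test, and their part was not tested. The Cftr difference in ileum minus that in colon tumours gave 0 of 39 genes (0.0% of all genes), with Cyp3a11 at −4.17 ± 1.13, Cyp3a25 at −2.81 ± 0.83 and Cyp2d22 at −1.09 ± 0.43, each at an adjusted p of 0.935.

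**Figure D5:**
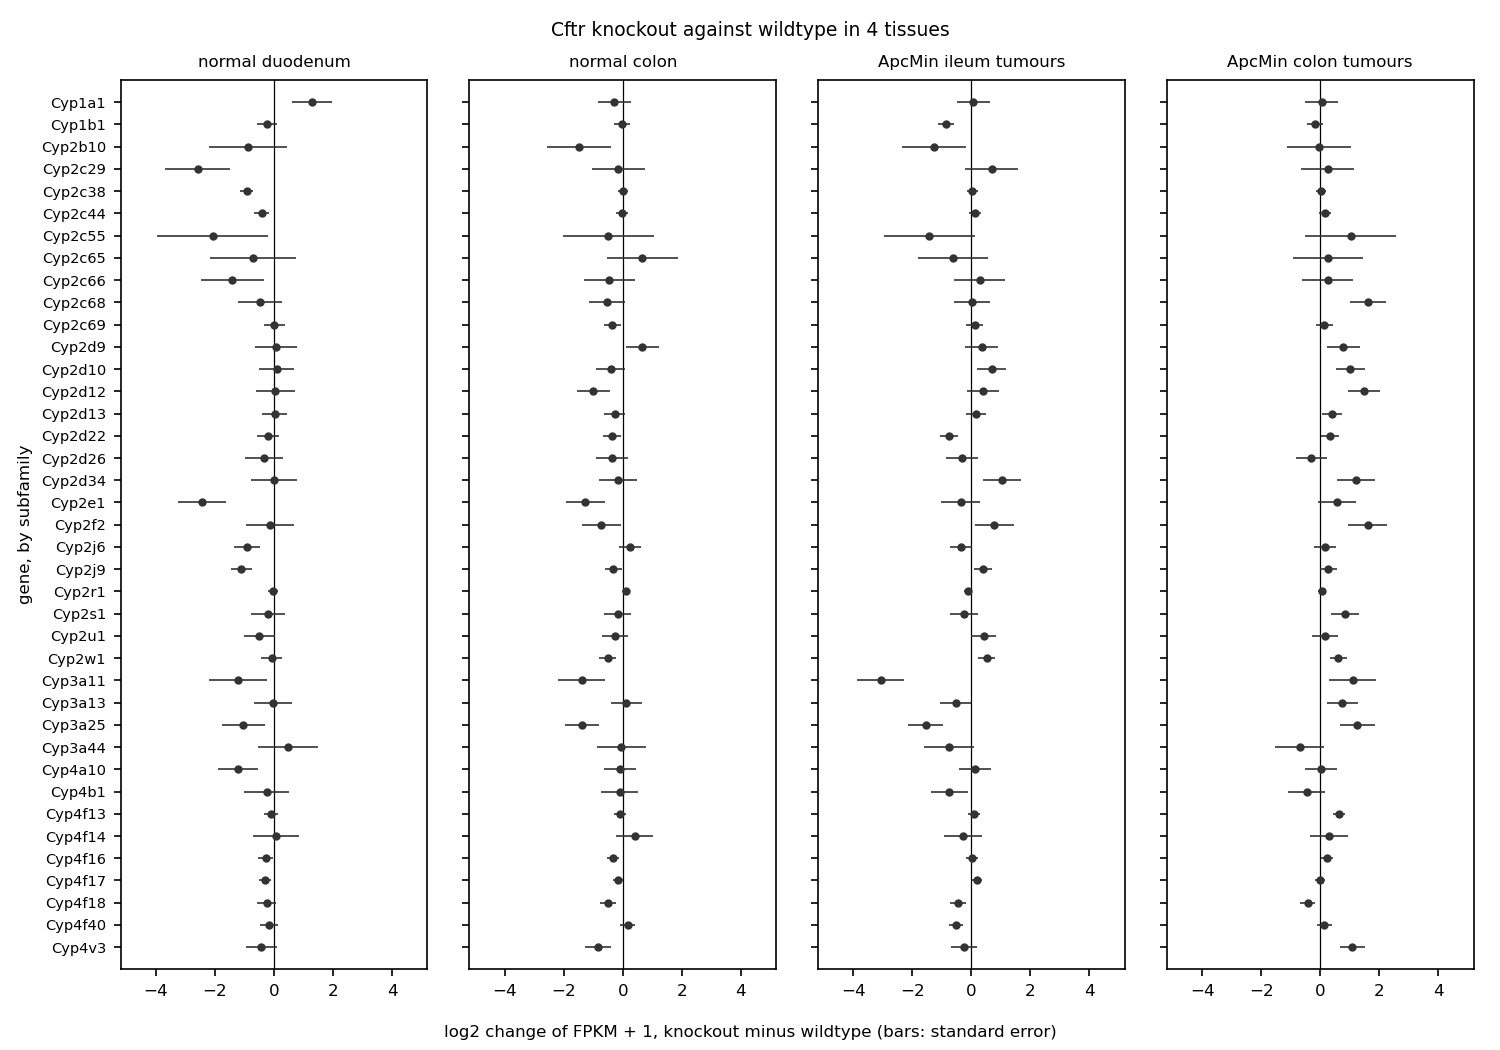
Log2 change with its SE of the 39 tested P450 genes, Cftr knockout minus wildtype, in normal duodenum, normal colon, ApcMin ileum tumours and ApcMin colon tumours, 1 panel each, with 0 as no change. No gene passed an adjusted p of 0.05 in any panel.

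The partners and regulators of these enzymes followed the organs in part. Of the electron donors, Por had 148 and 135 FPKM in knockout and 127 and 127 FPKM in wildtype duodenum, against 62.2 and 60.2 FPKM in knockout and 60.2 and 54.8 FPKM in wildtype colon (1.16 ± 0.19, adjusted p = 0.00021). The mitochondrial cytochrome b5 Cyb5b was at 309 to 326 FPKM in duodenum and 92.8 to 111 FPKM in colon (1.66 ± 0.14), and cytochrome b5 reductase Cyb5r3 at 358 to 452 FPKM in duodenum and 80.6 to 87.2 FPKM in colon (2.31 ± 0.28). Cyb5a, the donor of the endoplasmic reticulum, was not among the rows used here. The epoxide hydrolase Ephx2, which opens the fatty acid epoxides made by Cyp2c and Cyp2j enzymes, had 268 to 323 FPKM in duodenum against 20.0 to 31.8 FPKM in colon (3.64 ± 0.40). Another member of that family, Ephx4, went the other way, at 0.0873 to 0.203 FPKM in duodenum against 2.87 to 5.46 FPKM in colon (−2.06 ± 0.30, adjusted p = 9.09e-05). All of these groups were separate. Ephx1, the microsomal hydrolase, did not pass, at 16.2 to 30.3 FPKM in duodenum and 21.2 to 24.3 FPKM in colon.

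Of 10 receptors and sensors on the list, 6 were higher in duodenum than in colon and none lower. Nr1i3 (CAR) had 45.3 and 36.0 FPKM in knockout and 44.4 and 43.9 FPKM in wildtype duodenum, against 1.54 and 2.75 FPKM in knockout and 3.29 and 6.42 FPKM in wildtype colon (3.37 ± 0.50, adjusted p = 0.000112). Ppara changed by 1.14, Nr1i2 (PXR) by 0.70, Ahr by 0.52, Nr3c1 by 0.48 and Rxra by 0.46, while Hnf4a, Arnt, Vdr and Nr1h4 did not pass. In ApcMin ileum against colon tumours only Ppara passed among the 10 (1.27 ± 0.24, adjusted p = 0.0017), and Por was higher there by 1.01 ± 0.17 and Cyb5b by 0.47 ± 0.12.

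In ApcMin colon tumours against colon, 6 of the 10 were lower, with log2 changes of −1.68 for Vdr, −1.07 for Nr1i3, −0.80 for Ppara, −0.60 for Hnf4a, −0.47 for Rxra and −0.46 for Nr3c1. In heterozygous colon tumours 7 were lower, with Vdr at −2.13, Ppara at −1.34, Hnf4a at −1.32, Nr3c1 at −0.94, Nr1i2 at −0.89, Rxra at −0.86 and Arnt at −0.32, and Ahr was higher at 0.50. In heterozygous duodenal tumours Nr1i3 was lower, at 17.9 and 2.29 FPKM against 36.0 to 45.3 FPKM over both runs in duodenum (−2.50 ± 0.64, adjusted p = 0.0301). No regulator and no electron donor passed in any of the 4 comparisons of Cftr knockout with wildtype.

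The single Apc wildtype knockout colon tumour allows no test. It held 4.52 FPKM of Cyp2b10, 3.18 FPKM of Cyp2w1 and 1.72 FPKM of Cyp1b1, against 0.0330 and 0.112 FPKM, 0.518 and 0.484 FPKM, and 0.0532 and 0.0301 FPKM in knockout colon. Cyp2w1, whose human counterpart is known for its presence in colorectal tumours, was also at 3.51 and 0.961 FPKM in ApcMin knockout and 1.04 and 0.830 FPKM in ApcMin wildtype colon tumours. It was at 1.06 and 0.681 FPKM in heterozygous colon tumours and at 0.924 and 1.37 FPKM in wildtype colon. Neither comparison of ApcMin colon tumours with normal colon had it past the test. The single tumour also held 5.5 FPKM of Cyp2d9 and 16.9 FPKM of Cyp4f14, against 56.1 and 97.4 FPKM and 132 and 179 FPKM in knockout colon.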

How the data were processed

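RNA of 23 specimens from 12 groups was sequenced in 2 runs, 15 specimens in run 1 and 19 in run 2, with 11 in both. Per the labels' protocols, RNA was isolated from tissue stored in RNAlater and polyadenylated RNA was made into libraries. The build was mm10, and Cuffnorm, TopHat2 2.0.13 and FastQC are the tools listed, per the submitters' processing notes. The authors deposited 1 table of FPKM values with 23356 rows and 68 lane columns; it holds no counts, so no counting interval could be given, and counting with strand is not stated. FPKM of near-identical copies depends on how shared reads were divided, which is not given in the sources used here.

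Each specimen's lanes were reduced to their mean. The 14098 genes that reached 1 FPKM in 2 specimens entered limma (version 3.58.1, R 4.3.3; lmFit, eBayes with a trend) on a log2 scale with 1 added to each FPKM value, all groups sharing 1 estimate of the spread, with Benjamini-Hochberg adjustment over all genes and a threshold of 0.05. This scale understates changes of low genes. Comparisons of ApcMin colon tumours with colon used run 2 columns, and those of heterozygous tumours run 1 columns. The wildtype duodena differed by about as much as lanes of 1 specimen (ratio of SDs 0.883 in run 1 and 1.10, slightly above the lanes, in run 2, against 2.02 to 7.68 in other groups) and were counted as 1 sample. By the labels, the 2 tumours of each ApcMin group come from 1 animal, and the shared spread pools such pairs with pairs from different animals. For ApcMin tumours the p-values therefore do not measure the spread between animals. Those of the other comparisons rest in part on tumours of 1 animal. The test was tested on simulated data.

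The replicate number marks the same animal in normal colon and duodenum. Deviations from the group means correlated at 0.0332 in knockout and 0.0103 in wildtype over 14098 genes, and the pairing was used as an alternative. The wildtype value cannot show a pairing, since the wildtype duodena differed by about as much as lanes. The knockout value rests on a single pair of animals. The P450 genes were named where a group mean reached 1 FPKM. In a comparison, those that passed were named, up to the 12 of largest change, and where none passed the 3 with the smallest p were given. The genes and lists were chosen with earlier results of these data known. Gene positions come from the GRCm38 annotation and promoters from RefSeq.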

Additional observations from a re-analysis of the deposited data

Results flagged for a closer look

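The Cftr difference of Cyp2j6 in normal duodenum minus that in normal colon was −1.15 on the log2 scale (SE 0.58, adjusted p = 1.0 with limma). It was singled out because the knockout duodena (89.5 and 39.9 FPKM) lay below the wildtype ones (112 and 116 FPKM) while the knockout colons (21.5 and 18.2 FPKM) lay above the wildtype ones (16.4 and 16.9 FPKM).

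The same difference in ApcMin ileum minus colon tumours was −4.17 for Cyp3a11 and −2.81 for Cyp3a25. They were singled out because both genes were lower in knockout than in wildtype ileum tumours and higher in knockout than in wildtype colon tumours, in every tumour. Neither passed the adjusted threshold (adjusted p = 0.935 for each with limma). Each genotype is 1 animal.

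The single Apc wildtype knockout colon tumour, which enters no test, had 1.72 FPKM of Cyp1b1 and 3.18 FPKM of Cyp2w1, both above every normal colon (at most 0.0716 and 1.37 FPKM).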

How the results depend on the processing

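Alternatives changed the pseudocount, the filter, the scaling, the samples sharing the spread, the run, the count of the wildtype duodena and each specimen in turn. Of 1035 alternative values of named genes, 954 kept direction and side of the threshold, 77 lost the call, 4 gained it and 0 reversed. Quantile scaling lost 2 calls. The replicate block, with animal or replicate number as a term, changed no named call. It gave 11 genes instead of 6 in heterozygous duodenal tumours, with the wildtype duodena as 2 specimens, and 10 were given by that count without the block. Fitted on the compared groups alone, 1 of 3 genes in Apc wildtype duodenal tumours and 0 of 6 in heterozygous duodenal tumours passed, and without a filter 5 passed in Apc wildtype duodenal tumours. The 20 genes of ApcMin colon tumours against colon became 9 in the knockout groups only, and normal duodenum gave 1 gene for Cftr with wildtype duodenum as 2 specimens. Leaving out 1 specimen moved the count for Cftr in ApcMin colon tumours and for the Cftr difference of ileum minus colon tumours. It also moved the count in Apc wildtype and in heterozygous duodenal tumours. Such a fit leaves 1 specimen in a group, so its counts are not given. The number of all genes that passed also moved over the alternatives of these comparisons. The cause was not tested. Values near 1 FPKM rest on few reads, and no count was at hand to set a limit.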
